A study of Mus musculus with 20 samples.

Results

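Hypoxia response genes are genes that cells switch on when oxygen is short, together with the transcription factors that switch them on. They were followed here in whole epididymal fat pads of obese mice as 10 listed genes, Hif1a, Epas1, Vegfa, Adm, Egln3, Bnip3, Ankrd37, Pdk1, Slc2a1 and Car9, chosen by name through the platform annotation. All 10 were measured, each by 1 probe set, among 19505 named genes and 22206 probe sets. The 20 mice were males on the C57BL/6 background, aged 28 weeks, that ate chow to 10 weeks and then a purified diet with 40% of calories from fat for 18 weeks. Both genotypes carried the floxed Tnf gene on both chromosomes (labelled TNF-αFlox/FLox), so the controls were not unmodified mice. The 10 mice called cre also carried LyzMcre+/-, which drives Cre from the lysozyme M gene and so acts in macrophages and other myeloid cells, while the 10 littermates called wt were LyzMcre-/-. Each array held RNA of 1 mouse. The sample titles name 2 batches, with 5 wt and 5 cre mice in each, and do not say which step a batch stands for.

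Hypoxia-inducible factors pair an oxygen-sensitive α subunit, HIF-1α or HIF-2α, with a constant β partner. With oxygen present, prolyl hydroxylases mark the α subunit for destruction by the von Hippel-Lindau ligase, and with oxygen short the factor survives and binds short sites in its target genes. The control lies largely in the protein, so the mRNA of Hif1a or Epas1 does not report the activity of its factor, and the targets are the usual readout. Enlarged fat of obese animals is known for areas of low oxygen around large adipocytes, and macrophages in such fat also use HIF-1α.

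HIF target promoters often hold the core ACGTG, read on either strand. Of the 10 genes, 9 had start sites in the RefSeq promoter table (build GRCm38.p6), and the core lay within 250 bases before 7 of their 11 start sites, in 7 genes. Over all 32851 start sites in the table the share with the core was 16.6%. The stretches below are shown because they belong to genes whose levels behaved differently across the mice, as described further on. They run 5′ to 3′ on the strand of the gene, with the core in capitals, CACGT is the core of the opposite strand, and CACGTG is the core on both strands in overlap.
Slc2a1 (chr4:119108684-119108738, plus strand): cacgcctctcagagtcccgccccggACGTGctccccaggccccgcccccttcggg
Bnip3 (chr7:138909584-138909639, minus strand): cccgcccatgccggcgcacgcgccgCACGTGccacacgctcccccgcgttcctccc
Ankrd37 (chr8:45999851-45999881, minus strand): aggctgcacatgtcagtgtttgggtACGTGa
Hif1a (chr12:73907707-73907762, plus strand): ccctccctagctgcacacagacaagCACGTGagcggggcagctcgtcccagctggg
Car9 (chr4:43506983-43507025, plus strand): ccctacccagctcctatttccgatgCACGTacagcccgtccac
Egln3 (chr12:54204074-54204124, minus strand): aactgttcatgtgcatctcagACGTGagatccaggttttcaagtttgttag
The core began 36 bases before the start in Slc2a1, 108 in Bnip3, 6 in Ankrd37, 135 in Hif1a, 18 in Car9 and 229 in Egln3. Hif1a and Ankrd37 held a further core each, beginning 70 and 241 bases before the start. In Vegfa the core lay only before a start site inside the gene. The start sites of Hif1a (73907867) and Ankrd37 (45999850) in this table also lay inside the gene limits given further on. The windows of Adm and Pdk1 held no core. A match of these letters is a description of the window and no measure of binding.

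Some fat pads stood apart, and the mean log2 signal of marker lists shows how. In wt replicate 6 the markers of seminal vesicle and prostate averaged 13.83, where the remaining wt mice ran from 4.55 to 5.91, and the 13 measured adipocyte markers had a mean of 14.33. In wt replicate 5 the adipocyte mean was 15.00 and the macrophage mean 14.17. The other 18 mice had adipocyte means from 15.95 to 16.89, so adipocyte RNA was plain in every fat pad. In cre replicate 9 the macrophage mean was 10.49, the lowest of all mice, and the erythroid mean 10.79, the highest. Liver markers were spread over both genotypes: their mean was 14.13 in wt replicate 4 and 11.42 in wt replicate 9, against 5.92 to 8.77 in the remaining wt mice, and 12.39, 12.16, 11.41 and 11.09 in cre replicates 4, 10, 1 and 3. On average the liver mean was 1.40 higher in cre, with an SD between mice of 2.54 in wt and 1.92 in cre, and its part in the results was not tested. By a gap of over 1 log2 unit to the next mouse of the genotype in a list of another tissue, 4 mice were set apart: wt replicate 4 (liver and exocrine pancreas), wt replicate 6 and cre replicate 3 (seminal vesicle and prostate, 7.01 in the latter) and cre replicate 2 (bladder epithelium, 5.92). Tnf, the targeted gene, was lower in cre (4.67 ± 0.43 against 6.66 ± 0.69, SD, n = 10 each, limma adjusted p = 0.000822), and the groups did not overlap.

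Between genotypes, none of the 10 genes differed beyond the spread between mice once all probe sets were taken into account. By limma 0 of the 10 passed an adjusted p of 0.05, as 0.0045% of all probe sets did, a single probe set that reads Tnf. At an unadjusted p under 0.05, 2 of the 10 were higher in cre, where 3.24% of all probe sets were, and 1 was lower, where 3.05% were. The authors' stated cut-offs, at least a 1.5-fold difference and an unadjusted p under 0.05, took 1 of the 10 as higher, Adm, and 0 as lower. The same cut-offs took 0.383% of all probe sets as higher and 0.662% as lower. In direction alone 7 genes were higher and 3 lower in cre, where 50.7% of all probe sets were higher. Their median difference was 0.13 on the log2 scale against 0.0034 over all probe sets. Epas1, Vegfa, Bnip3 and Pdk1 of the 7, and Car9 of the 3, turned sign in alternative runs given further on.

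**Figure D1:**
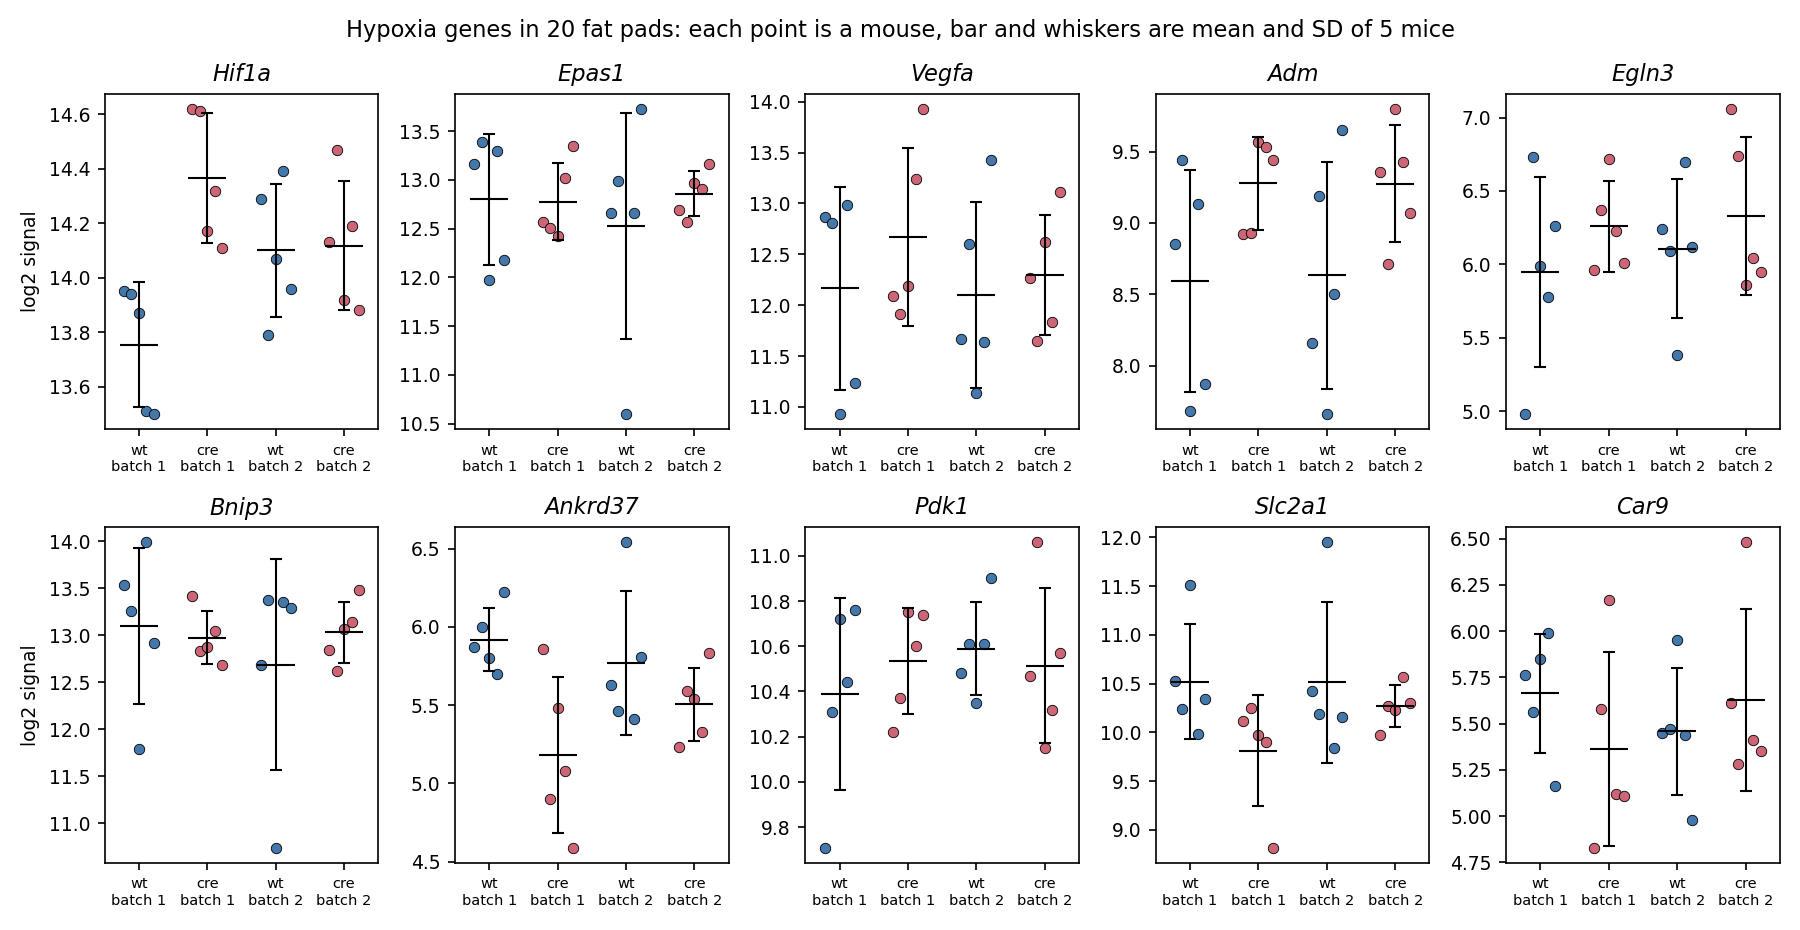
Log2 signal (vertical axis, own scale per gene) of each hypoxia gene in wt (blue) and cre (red) mice of batch 1 and batch 2; each point is a mouse, and bars and whiskers are the mean and SD of 5 mice. Hif1a of batch 1 is the only panel in which the genotypes of a batch do not overlap, with cre from 14.11 to 14.62 and wt from 13.50 to 13.95.

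Hif1a encodes HIF-1α (chromosome 12, 73901324 to 73947554, mm10). In batch 1 its log2 signal in wt replicates 1, 3, 5, 7 and 9 was 13.95, 13.94, 13.87, 13.51 and 13.50, and in the cre replicates of the same numbers 14.62, 14.61, 14.17, 14.32 and 14.11. In batch 2 the values of replicates 2, 4, 6, 8 and 10 were 14.29, 13.79, 14.07, 14.39 and 13.96 in wt and 14.13, 14.47, 13.92, 14.19 and 13.88 in cre. Each cre mouse of batch 1 thus lay above each wt mouse of that batch, while in batch 2 the genotypes lay among each other. Of all probe sets 0.707% showed this pattern in that batch and direction. The 10 genes were looked at in both batches and both directions. The share of all probe sets without overlap in either batch or direction was not computed. The difference, cre minus wt, was 0.62 in batch 1 (95% interval 0.20 to 1.03) and 0.02 in batch 2 (−0.39 to 0.43). Over all mice wt averaged 13.93 ± 0.29 and cre 14.24 ± 0.26 (SD, n = 10 each), a difference of 0.32 (SE 0.14, limma unadjusted p = 0.0296, adjusted p = 0.778). The 2 batch values differed by −0.60 (95% interval −1.11 to −0.09), and limma's interaction of genotype and batch gave an unadjusted p of 0.0238 and an adjusted p of 0.654. Of all probe sets, 7.41% had an interaction with an unadjusted p under 0.05 and 0% passed adjustment, while 1 of the 10 genes, Hif1a, did so unadjusted. Hif1a was also the only 1 of the 10 in which neighbours in the order of the 4 group means were further apart than the larger of their SDs, from wt of batch 1 at 13.75 to wt of batch 2 at 14.10, and from cre of batch 2 at 14.12 to cre of batch 1 at 14.37. In the other 9 genes all 3 gaps between neighbours were within that spread. Leaving out the 4 mice set apart by another tissue, wt replicates 4 and 6 and cre replicates 2 and 3, gave a Hif1a difference of 0.27 (limma unadjusted p = 0.108). Leaving out wt replicate 7 or 9 or cre replicate 1, 3 or 4 alone also took the unadjusted p past 0.05, to between 0.0508 and 0.0621, with differences of 0.27 to 0.29.

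Epas1 encodes HIF-2α, the second α subunit, which is strong in endothelial cells and also found in adipocytes (chromosome 17, 86753864 to 86833410, mm10). Its level ran from 10.60 over a median of 12.83 to 13.73 in wt and from 12.43 over 12.80 to 13.35 in cre mice. The cre mice lay wholly within the wt range. The difference was 0.15 (95% interval −0.44 to 0.74, limma adjusted p = 0.938). It was −0.02 in batch 1 and 0.33 in batch 2, where wt replicate 6 had the lowest value of all mice. Without wt replicate 6 the difference was −0.08, so the sign of the Epas1 value rests on that mouse. As these are whole fat pads, fewer cells of a type and less RNA per cell cannot be told apart for this or any other gene here.

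Egln3 encodes PHD3, a prolyl hydroxylase that marks HIF α subunits for destruction and is itself a HIF target (chromosome 12, 54178981 to 54203874, mm10). Its level ran from 4.98 over 6.10 to 6.73 in wt and from 5.86 over 6.13 to 7.06 in cre, and the groups overlapped. The difference was 0.27 (95% interval −0.17 to 0.70, limma adjusted p = 0.848), 0.31 in batch 1 and 0.23 in batch 2. It was 0.15 without wt replicate 1, the lowest mouse, and 0.07 without the 4 mice set apart by another tissue. The signal lay near the array medians of 6.49 to 6.58, and no detection call was used here.

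Adm encodes adrenomedullin, a secreted peptide that widens vessels and supports the endothelial barrier (chromosome 7, 110627657 to 110629820, mm10). In batch 1 its log2 signal in wt replicates 1, 3, 5, 7 and 9 was 8.85, 9.44, 7.68, 9.13 and 7.87, against 8.92, 8.93, 9.57, 9.53 and 9.44 in cre. In batch 2 replicates 2, 4, 6, 8 and 10 had 8.16, 9.19, 7.66, 8.50 and 9.65 in wt and 9.36, 8.71, 9.80, 9.43 and 9.07 in cre. The wt mice spread over 1.99 log2 units and the cre mice over 1.09, so the groups overlapped in their upper part. All 10 cre mice lay above the wt mean, which includes the low wt replicates 5 and 6 (7.68 and 7.66). The share of all probe sets with such a count was not computed. Wt averaged 8.61 ± 0.74 and cre 9.28 ± 0.35 (SD, n = 10 each), a 1.58-fold higher mean in cre (difference 0.66, SE 0.25, 95% interval 0.15 to 1.18, limma unadjusted p = 0.0138, adjusted p = 0.770). By batch it was 0.68 (batch 1) and 0.64 (batch 2). Without wt replicates 5 and 6, whose adipocyte means were lowest, it was 0.43 (limma unadjusted p = 0.0685). At an equal adipocyte marker mean it was 0.44 (unadjusted p = 0.0202) and at an equal macrophage marker mean 0.46 (unadjusted p = 0.0534), each by limma.

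Vegfa encodes the vascular endothelial growth factor that draws new vessels into hypoxic tissue (chromosome 17, 46016993 to 46032377, mm10). Its level ran from 10.93 over 12.13 to 13.43 in wt and from 11.65 over 12.23 to 13.93 in cre, so that fat pads of the same genotype differed by up to 5.66-fold in wt and 4.87-fold in cre. The difference between genotypes was 0.35 (95% interval −0.35 to 1.06, limma adjusted p = 0.876), 0.51 in batch 1 and 0.20 in batch 2. The highest value, 13.93, was that of cre replicate 9, the mouse with the lowest macrophage mean, and without it the difference was 0.20. At an equal macrophage marker mean the difference was −0.07, at an equal adipocyte marker mean 0.06, and with array weights 0.11.

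Slc2a1 encodes GLUT1, the glucose transporter that most cells use without insulin (chromosome 4, 119108745 to 119137330, mm10). In batch 1 the log2 signal of wt replicates 1, 3, 5, 7 and 9 was 10.53, 10.24, 11.51, 9.98 and 10.34, and that of the cre mice 10.12, 10.25, 9.97, 9.90 and 8.82. In batch 2 replicates 2, 4, 6, 8 and 10 had 10.42, 10.19, 11.95, 9.84 and 10.16 in wt and 9.97, 10.27, 10.23, 10.57 and 10.30 in cre. The extremes were wt replicates 5 and 6 at the top and cre replicate 9 at the bottom, and the remaining mice of both genotypes shared a band from 9.84 to 10.57. The difference was −0.48 (SE 0.24, 95% interval −0.99 to 0.03, limma unadjusted p = 0.0634, adjusted p = 0.801), −0.71 in batch 1 and −0.25 in batch 2. It was −0.18 without the 2 wt mice. Without those 3 mice it was −0.04, a choice made after the values were seen.

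Pdk1 encodes a kinase that switches off pyruvate dehydrogenase (chromosome 2, 71873215 to 71903858, mm10). Wt averaged 10.49 ± 0.33 and cre 10.53 ± 0.28 (SD, n = 10 each), and 5 cre mice lay above and 5 below the wt mean. The difference was 0.04 (95% interval −0.27 to 0.34, limma adjusted p = 0.973). Bnip3 encodes a receptor that marks mitochondria for removal by autophagy (chromosome 7, 138890836 to 138909506, mm10). Its level ran from 10.74 over 13.28 to 13.99 in wt and from 12.62 over 12.96 to 13.48 in cre. The difference was 0.11 (95% interval −0.50 to 0.72, limma adjusted p = 0.957), and it was −0.13 without wt replicate 6, −0.03 without wt replicate 5 and −0.30 without either.

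Ankrd37 encodes an ankyrin repeat protein known as a HIF-1 target (chromosome 8, 45996908 to 46000414, mm10). In batch 1 its log2 signal in wt replicates 1, 3, 5, 7 and 9 was 5.87, 6.00, 5.80, 5.70 and 6.22, and in cre 5.86, 4.90, 5.48, 5.08 and 4.59. In batch 2 replicates 2, 4, 6, 8 and 10 had 5.63, 5.46, 6.54, 5.41 and 5.81 in wt and 5.23, 5.59, 5.54, 5.33 and 5.83 in cre. In batch 1, 4 of 5 cre mice lay below every wt mouse, and in batch 2 the genotypes overlapped. Wt averaged 5.84 ± 0.34 and cre 5.34 ± 0.40 (SD, n = 10 each), a difference of −0.50 (SE 0.17, 95% interval −0.85 to −0.15, limma unadjusted p = 0.0075, adjusted p = 0.770), −0.74 in batch 1 and −0.26 in batch 2. All these signals lay below or near the array medians of 6.49 to 6.58. Ankrd37 had the lowest unadjusted p of the 10 genes, and it went the other way from Adm and Hif1a. Car9 encodes carbonic anhydrase IX, a surface enzyme that handles acid of hypoxic cells (chromosome 4, 43507026 to 43513729, mm10). Its level was low too, with averages of 5.56 ± 0.33 for wt and 5.49 ± 0.50 for cre (SD, n = 10 each), with a difference of −0.06 (95% interval −0.46 to 0.33, limma adjusted p = 0.959).

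**Figure D2:**
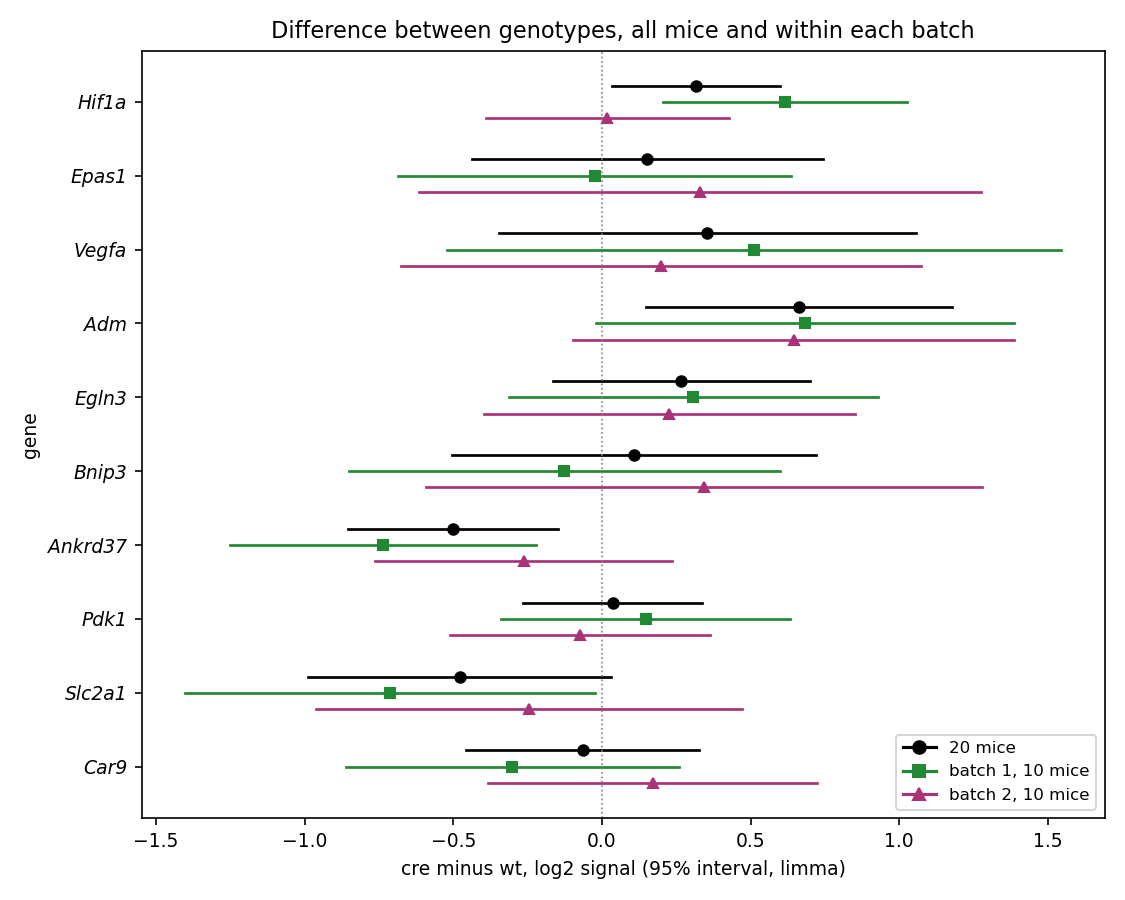
Difference between cre and wt (horizontal axis, log2 signal) for each hypoxia gene, as point and 95% interval of limma, over 20 mice (black circles), in batch 1 (green squares) and in batch 2 (purple triangles). The interval over 20 mice leaves out 0 for Hif1a, Adm and Ankrd37, and in batch 2 every interval spans 0.

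The batches themselves hardly differed. For 0 of the 10 genes did the batch term of the limma fit reach an unadjusted p under 0.05, and its estimates lay between −0.22 for Vegfa and 0.22 for Slc2a1. Of all probe sets 0.572% had an unadjusted p under 0.05 for batch and 0% passed adjustment. That is far below the share that the threshold itself would give without any batch effect. The sources used here do not say whether the values were adjusted for batch before deposit.

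The spread between mice also varied by gene. The SD of wt over that of cre was 3.31 for Bnip3, 2.94 for Epas1 and 2.13 for Adm, between 1.10 and 1.44 for Hif1a, Pdk1, Vegfa, Egln3 and Slc2a1, and 0.842 for Ankrd37 and 0.662 for Car9, against a median of 0.991 over all probe sets. No test was made of these ratios. Much of the wt spread of Bnip3 and Epas1 lay in wt replicates 5 and 6: without them the wt SD went from 0.96 to 0.39 for Bnip3 and from 0.91 to 0.49 for Epas1. For Adm the wt SD went only from 0.74 to 0.63, still above the cre SD of 0.35. For Slc2a1 it went from 0.68 to 0.23, below the cre SD of 0.47.

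Across mice, after the mean of each genotype and batch was removed, Epas1, Vegfa and Adm went up and down together, and Bnip3 went with Epas1 and Adm by the values of the wt mice. Relations were computed for the 45 pairs of hypoxia genes and for each gene with 3 marker means, 75 in all, with p from permutation within genotype and batch and adjustment over the 75. Of the 45 pairs, 7 passed an adjusted p of 0.05 by Pearson's r, 5 positive and 2 negative, and all 7 were among Epas1, Vegfa, Adm, Bnip3 and Slc2a1. Epas1 and Vegfa had r = 0.822 and Spearman's rho = 0.941 (permutation p = 1e-05 for each, the smallest that the resamples can give, adjusted p = 0.00075), with r = 0.968 in batch 1 and 0.777 in batch 2. Epas1 and Adm had r = 0.818 and rho = 0.779 (permutation p = 0.00023 and 0.00089, adjusted p = 0.00337 and 0.0103), with r = 0.869 in batch 1 and 0.806 in batch 2. Vegfa and Adm had r = 0.80 and rho = 0.768 (permutation p = 0.00034 and 0.00097, adjusted p = 0.00364 and 0.0103), with r = 0.812 and 0.802 in the batches. With the 2 mice farthest from the median left out these 3 values of r were 0.774, 0.770 and 0.736, so none rested on them. By genotype, Epas1 and Vegfa had r = 0.855 among wt and 0.930 among cre mice, but Epas1 and Adm had 0.892 and 0.388, and Vegfa and Adm 0.962 and 0.438. These differences between genotypes were not tested.

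The pairs with Bnip3 and Slc2a1 leaned more on wt replicates 5 and 6, the 2 mice farthest from the median in each. Epas1 and Bnip3 had r = 0.832 and rho = 0.684 (permutation p = 0.00358 and 0.00508, adjusted p = 0.0268 and 0.0335), and r = 0.555 without these mice. Its r was 0.631 in batch 1 and 0.932 in batch 2, and 0.903 among wt against 0.161 among cre mice. Adm and Bnip3 had r = 0.674 and rho = 0.630 (permutation p = 0.0103 and 0.0118, adjusted p = 0.0431 and 0.0578), and r = 0.450 without them, with 0.639 and 0.706 in the batches. Among wt mice its r was 0.779 and among cre mice 9.91e-05, so both relations of Bnip3 were seen in wt mice and not within cre mice, a difference that was not tested. Vegfa and Bnip3 had r = 0.578 and rho = 0.597 (permutation p = 0.0183 and 0.0123, adjusted p = 0.0688 and 0.0578) and did not pass. Slc2a1 ran against Epas1 and Vegfa, with r = −0.788 and rho = −0.692 to Epas1 (permutation p = 0.00492 and 0.0057, adjusted p = 0.0307 and 0.0335) and r = −0.644 and rho = −0.653 to Vegfa (permutation p = 0.00457 and 0.00389, adjusted p = 0.0307 and 0.0292). Without the 2 mice these values of r were −0.497 and −0.521. Within batches the first was −0.754 and −0.832 and the second −0.794 and −0.480. With Adm and Bnip3, Slc2a1 had r = −0.594 and −0.721 and did not pass (permutation p = 0.0182 and 0.023, adjusted p = 0.0688 and 0.0822). Without the 2 mice these were −0.301 and −0.20. Bnip3 and Slc2a1 had r = −0.961 among wt and 0.435 among cre mice, a difference that was not tested. Hif1a, Egln3, Pdk1, Ankrd37 and Car9 passed in no pair. Among cre mice alone, Hif1a had r = −0.776 with Vegfa and −0.745 with Adm, against −0.201 and −0.172 among wt mice. These values by genotype were not tested.

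**Figure D3:**
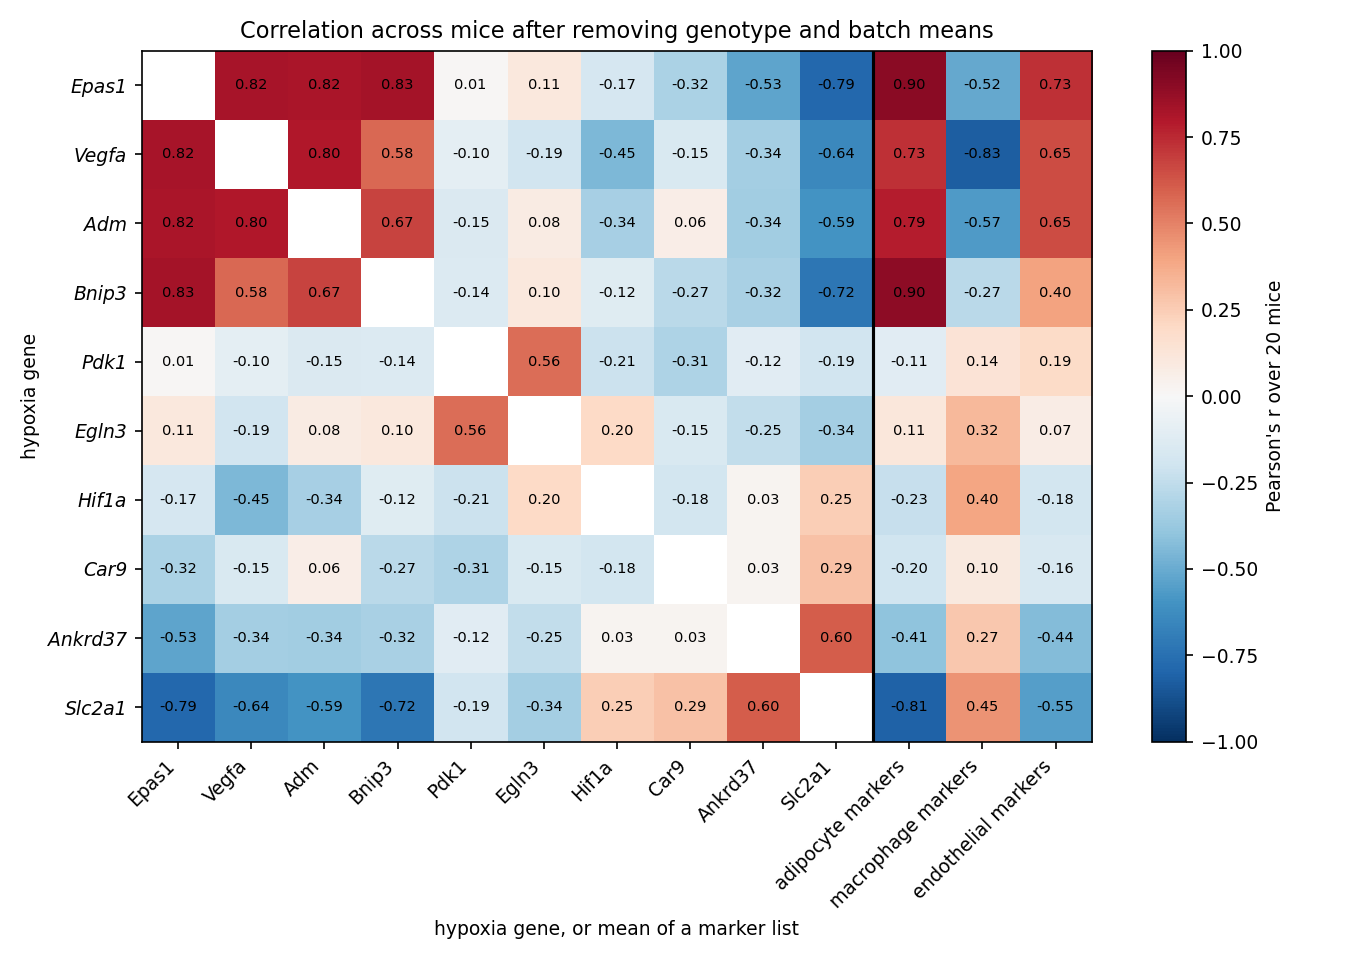
Pearson's r over 20 mice between hypoxia genes, and between each gene and the mean of 3 marker lists (right of the line), after removing the mean of each genotype and batch; red is positive, blue negative, and blank cells are a gene with itself. Epas1, Vegfa, Adm and Bnip3 form the red block at upper left, with Slc2a1 blue against it and Hif1a pale, from −0.45 with Vegfa to 0.40 with macrophage markers.

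Epas1, Bnip3, Adm and Vegfa went with the adipocyte markers. Epas1 had r = 0.903 and rho = 0.863 with the adipocyte mean (permutation p = 9e-05 and 0.00033, adjusted p = 0.00169 and 0.00675), and r = 0.783 without wt replicates 5 and 6. Bnip3 had r = 0.896 and rho = 0.770 (permutation p = 0.00169 and 0.00172, adjusted p = 0.0158 and 0.0143), and r = 0.637 without them. Adm had r = 0.788 and rho = 0.842 (permutation p = 3e-05 for each, adjusted p = 0.00112), and Vegfa r = 0.733 and rho = 0.791 (permutation p = 8e-05 and 0.00036, adjusted p = 0.00169 and 0.00675), with r = 0.707 and 0.733 without the 2 mice. In both batches all 4 values of r were above 0.66. By genotype, wt first, they were 0.926 and 0.741 for Epas1, 0.808 and 0.694 for Adm, 0.765 and 0.766 for Vegfa, but 0.962 and 0.367 for Bnip3. Slc2a1 had r = −0.807 and rho = −0.577 (permutation p = 0.00842 and 0.0235, adjusted p = 0.0379 and 0.0929), with −0.738 and −0.865 in the batches but r = −0.448 without the 2 mice, and −0.935 among wt against −0.321 among cre mice, so its relation rested largely on them. Hif1a had r = −0.228 and rho = −0.283 (permutation p = 0.396 and 0.245, adjusted p = 0.625 and 0.524). By genotype its r was −0.045 among wt and −0.769 among cre mice, a difference that was not tested. The part that the amount of adipocyte RNA has in the levels of these genes was not tested beyond the values at an equal adipocyte mean given here.

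**Figure D4:**
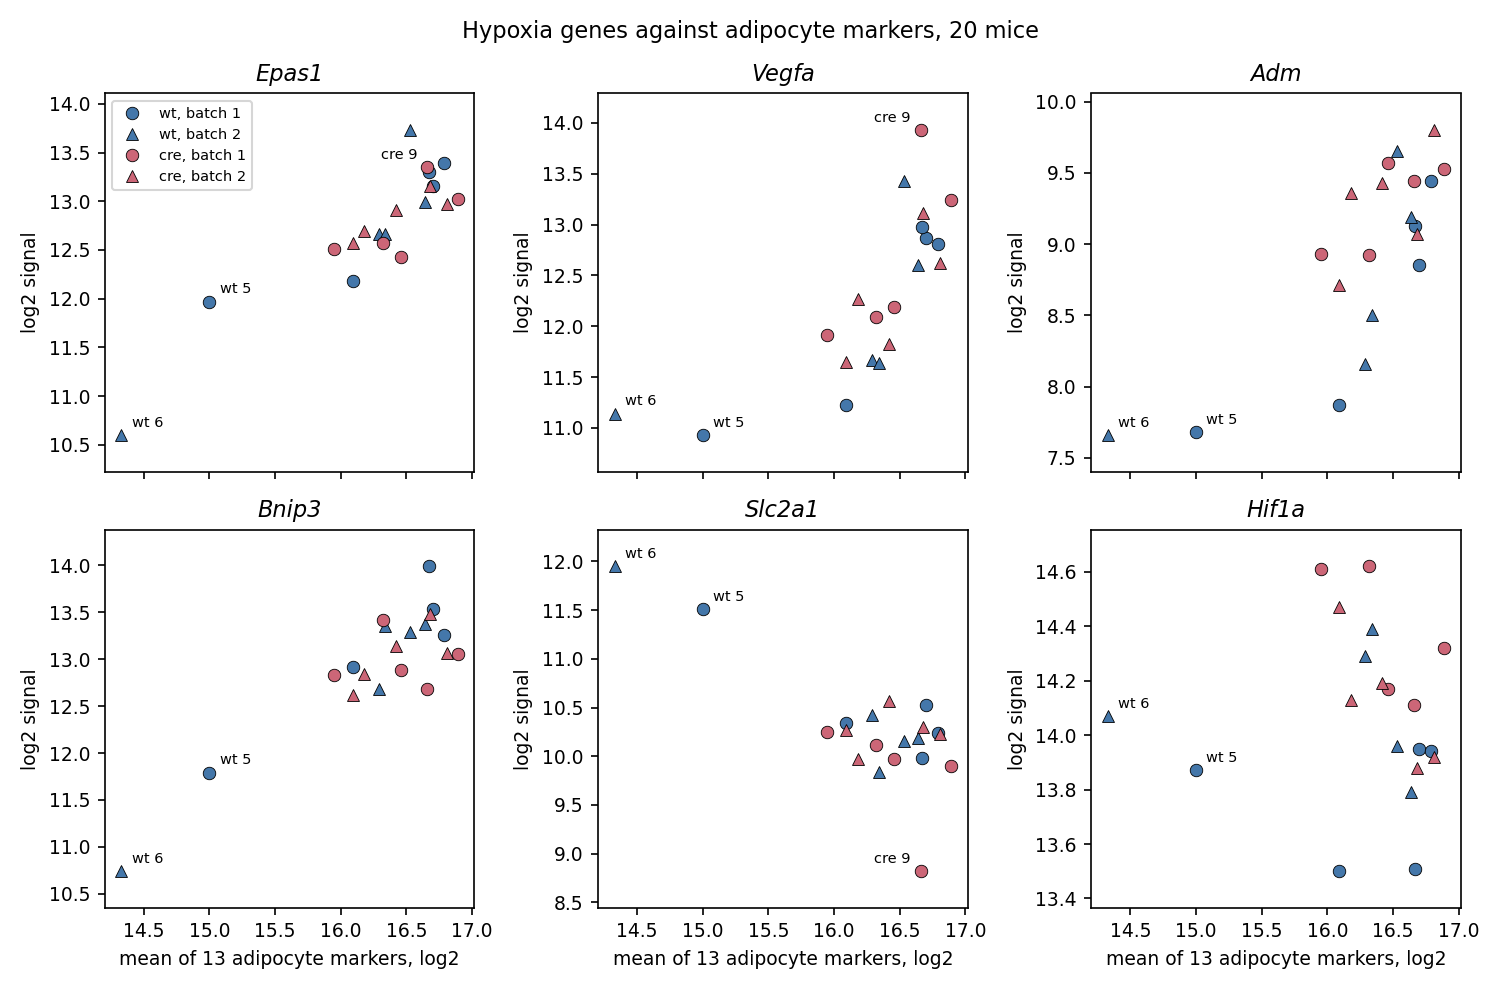
Log2 signal of 6 hypoxia genes (vertical axes) against the mean log2 signal of 13 adipocyte markers (horizontal axis) in wt (blue) and cre (red) mice of batch 1 (circles) and batch 2 (triangles). Epas1, Vegfa, Adm and Bnip3 climb with the adipocyte mean, wt replicates 5 and 6 stand apart at 15.00 and 14.33, and Hif1a shows no such climb.

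Macrophage markers ran the other way for the secreted factors. Vegfa had r = −0.828 and rho = −0.794 with the macrophage mean (permutation p = 0.00027 and 0.0011, adjusted p = 0.00337 and 0.0103), −0.960 in batch 1, −0.582 in batch 2 and −0.789 without cre replicates 9 and 3. Adm had r = −0.568 and rho = −0.618 (permutation p = 0.00713 and 0.00581, adjusted p = 0.0379 and 0.0335), −0.708 and −0.424 in the batches and −0.616 without the same mice. Epas1 had r = −0.515 and rho = −0.768 (permutation p = 0.0086 and 0.00109, adjusted p = 0.0379 and 0.0103). Its r was −0.893 in batch 1 but −0.199 in batch 2, which holds wt replicate 6, the mouse with the lowest Epas1 value. It was −0.492 without cre replicates 9 and 3, and −0.705 without wt replicates 5 and 6. By genotype, wt first, r with the macrophage mean was −0.792 and −0.916 for Vegfa, −0.775 and −0.413 for Adm and −0.476 and −0.940 for Epas1. With endothelial markers r was 0.733 for Epas1, 0.654 for Adm and 0.652 for Vegfa (permutation p = 0.00304, 0.00851 and 0.00858, adjusted p = 0.0253, 0.0379 and 0.0379). These were 0.568, 0.589 and 0.648 in batch 1, 0.867, 0.715 and 0.663 in batch 2, and 0.522, 0.475 and 0.535 without wt replicates 6 and 10. Among wt mice they were 0.848, 0.792 and 0.766 and among cre mice 0.452, 0.303 and 0.454. Spearman's rho for these 3 was 0.636, 0.611 and 0.617 and did not pass adjustment (permutation p = 0.0108, 0.016 and 0.0132, adjusted p = 0.0578, 0.0667 and 0.0581).

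Genes with the most similar pattern over the 20 mice were taken as the 3 highest of 18541 named genes by Pearson's r, so their r is a maximum and has no p. For Vegfa they were Pck1 (r = 0.940), which makes glycerol phosphate for fat storage in adipocytes, Acad11 (r = 0.937), an acyl-CoA dehydrogenase, and Chrdl1 (r = 0.925), a BMP antagonist. For Epas1 they were the kinase gene Sik2 (r = 0.957), Tns2 (r = 0.944) and Crim1 (r = 0.942). For Adm they were the corticotropin receptor gene Mc2r (r = 0.893), Man2a2 (r = 0.886) and Lsm12 (r = 0.872). For Bnip3 they were Lgals1 (r = 0.934), Ormdl3 (r = 0.928) and the acyl-CoA dehydrogenase gene Acads (r = 0.927). For Slc2a1 they were Ncdn (r = 0.926), H13 (r = 0.908) and Got2 (r = 0.880), and for Hif1a Tanc2 (r = 0.832), Sertad4 (r = 0.790) and Fem1b (r = 0.773). Without wt replicates 5 and 6 the r of Got2 with Slc2a1 was 0.731 and that of Pck1 with Vegfa 0.945. The nearest gene to Egln3 was Spats2l (r = 0.820), followed by Tcl1 and Scara5 (r = 0.803 and 0.787). B3galt5, Fam83h and Slc35b1 came nearest to Ankrd37 (r = 0.859, 0.827 and 0.798). Cryl1, Rab5b and Ajm1 came nearest to Pdk1 (r = 0.796, 0.786 and 0.765), and Xrcc3, Bpifb4 and Etv4 to Car9 (r = 0.829, 0.807 and 0.791).

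Other genes of oxygen sensing differed little between genotypes. Of 13 regulators and partners of HIF, 6 were higher and 7 lower in cre, with a median difference of −0.02, and 0 passed adjustment in limma. Cited2, which competes with HIF for its coactivators, was the only gene of this list with an unadjusted p under 0.05. It averaged 14.55 ± 0.55 for wt and 14.03 ± 0.62 for cre (SD, n = 10 each), a difference of −0.52 (SE 0.25, limma unadjusted p = 0.0487, adjusted p = 0.789), which was −1.17 in batch 1, 0.13 in batch 2 and −0.61 without wt replicates 5 and 6. Egln1, the main HIF prolyl hydroxylase, differed by 0.26 and Hif1an, the asparagine hydroxylase of HIF, by 0.27 (limma adjusted p = 0.797 and 0.810). Egln1 differed by 0.15 without wt replicates 5 and 6. Vhl and Arnt, the β partner, differed by 0.04 and −0.07, and by −0.12 each without these mice.

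Glycolysis, a main target pathway of HIF-1, was split as well. Of 17 measured genes of 19 listed, 6 were higher and 11 lower, with a median of −0.04 and 0 past adjustment in limma. The 2 genes with an unadjusted p under 0.05 were both transporters and both lower in cre. The lactate exporter gene Slc16a3 averaged 7.03 ± 0.70 for wt and 6.43 ± 0.46 for cre (SD, n = 10 each), a difference of −0.60 (limma unadjusted p = 0.0233, adjusted p = 0.770), −0.80 in batch 1 and −0.40 in batch 2. Without wt replicates 5 and 6 the Slc16a3 difference was −0.31 (limma unadjusted p = 0.101). The glucose transporter gene Slc2a3 had 5.60 ± 0.23 and 5.28 ± 0.24 (SD, n = 10 each), a difference of −0.32 (limma unadjusted p = 0.0166, adjusted p = 0.770), −0.34 and −0.30 in the batches. Both are also known in myeloid cells, and the 16 macrophage markers had a median difference of −0.50, all below 0, with 0 past adjustment in limma. At an unadjusted p under 0.05, 3 of the 16 were lower, where 3.05% of all probe sets were. In batch 2 alone, 7 of the 16 were above 0, and without wt replicates 5 and 6 all 16 were below 0 with 0 at an unadjusted p under 0.05 (median −0.42). The part of macrophage RNA in these transporters was not tested. Among the enzymes, Ldha differed by 0.07, Pgk1 by −0.09 and Pfkfb3, which makes the activator of phosphofructokinase, by 0.55 (limma adjusted p = 0.948, 0.909 and 0.818). These were −0.06, −0.04 and 0.11 without wt replicates 5 and 6.

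The receptors and partners of the secreted factors gave 8 genes higher and 7 lower of 15 measured, with a median of 0.03 and 0 at an unadjusted p under 0.05 by limma. Vegfb and Nos3, the endothelial nitric oxide synthase gene, had the smallest p, with differences of −0.40 and 0.49 (limma adjusted p = 0.826 and 0.831). Calcrl and Ramp2, which form an adrenomedullin receptor, differed by −0.08 and −0.28, and the VEGF receptor genes Kdr and Flt1 by 0.31 and 0.13. Without wt replicates 5 and 6, Vegfb differed by −0.69 (limma unadjusted p = 0.00409) and Ramp2 by −0.51 (limma unadjusted p = 0.0104), while Calcrl, Kdr and Flt1 turned sign, to 0.04, −0.05 and −0.19. Of 13 mitochondrial and survival targets, 8 were higher and 5 lower (median 0.05), with 0 at an unadjusted p under 0.05. Fam162a and Pdk4 had the smallest p, with 0.41 and −0.88 (limma adjusted p = 0.801 and 0.810), and Fam162a differed by 0.89 in batch 1 and −0.07 in batch 2. Pdk4 differed by −1.19 without wt replicates 5 and 6 (limma unadjusted p = 0.0249). Bnip3l, the relative of Bnip3 in mitophagy, differed by −0.16. Of 13 measured matrix and chromatin targets, 7 were higher and 6 lower (median 0.13), and only Car12, the carbonic anhydrase XII gene, had an unadjusted p under 0.05. It averaged 4.44 ± 0.35 for wt and 4.96 ± 0.45 for cre (SD, n = 10 each), low signals on this array, with a difference of 0.52 (limma unadjusted p = 0.00835, adjusted p = 0.770). Its relative Car9 differed by −0.06. Over these 5 lists, 4 of 71 measured genes had an unadjusted p under 0.05, 3 of them lower and 1 higher, beside 3.05% and 3.24% of all probe sets. Without wt replicates 5 and 6 it was 6 of 71, with Cited2, Slc2a3, Vegfb, Ramp2 and Pdk4 lower and Car12 higher. Slc16a3 was thus lost and Vegfb, Ramp2 and Pdk4 were gained. The share of all probe sets at that p without these 2 mice was not computed, so this count has no background beside it.

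**Figure D5:**
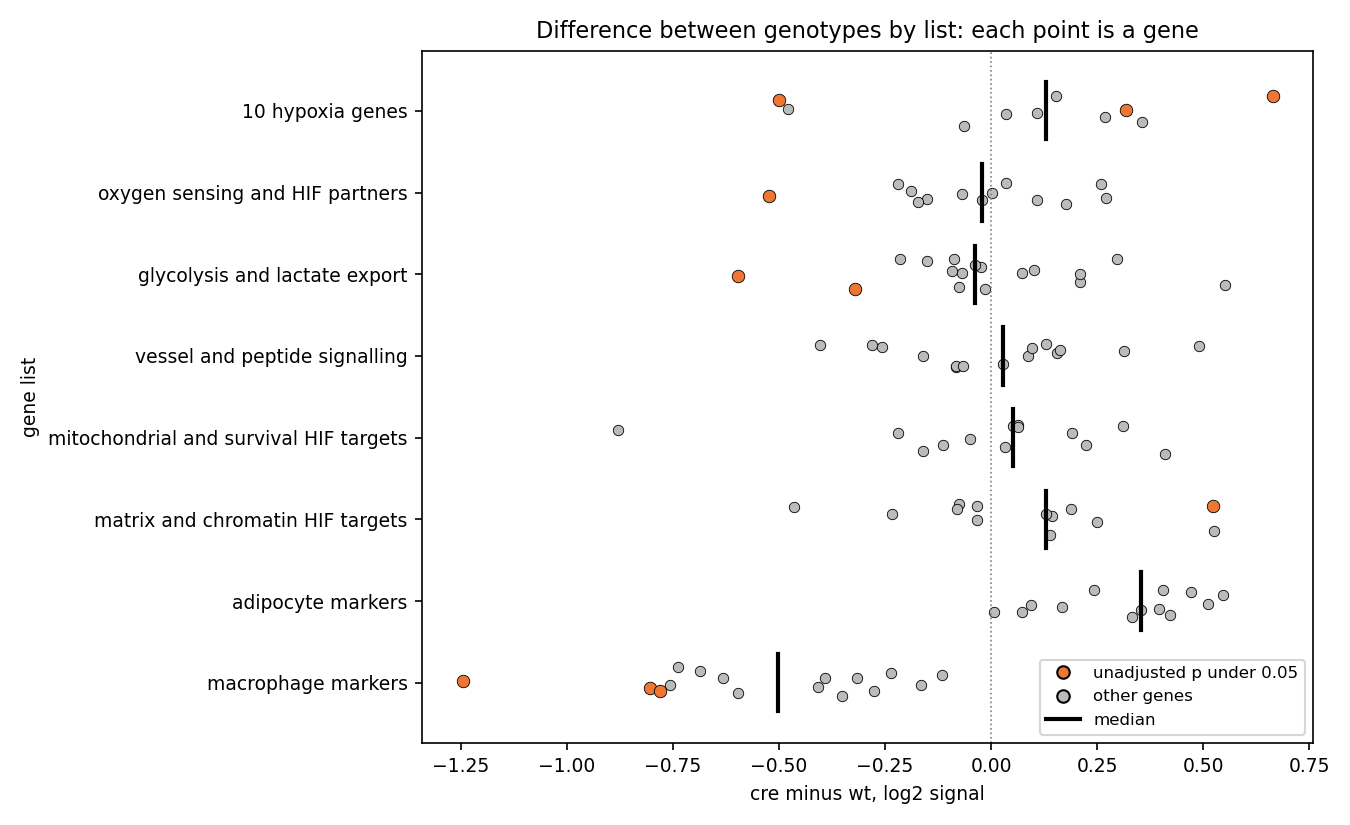
Difference between cre and wt (horizontal axis, log2 signal) of every measured gene in the hypoxia list, 5 further lists of the pathway and 2 marker lists; each point is a gene, orange where the unadjusted p was under 0.05, and black bars are medians. The 6 hypoxia lists have medians from −0.04 to 0.13, while over 20 mice the adipocyte markers lie above 0 and the macrophage markers below; without wt replicates 5 and 6, 8 of the 13 adipocyte markers were below 0, and in batch 2 alone 7 of the 16 macrophage markers were above 0.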

How the data were processed

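RNA of 20 epididymal fat pads was hybridised to expression arrays. The deposited values are log2 signals, 1 per probe set and array, which the authors made with RMA in Transcriptome Analysis Console 4.0.2.15 on the mm10 build, per the submitters' processing notes. RMA usually makes arrays alike in distribution, so a shift of most genes would be lost. The sources used here name no filter and no batch adjustment. Groups, batches and replicate numbers came from the titles. The platform annotation gave 1 symbol for 19572 of 22206 probe sets, several for 0 and none for 2634, and all 19572 were found in RefSeq by gene number. The highest-mean probe set stood for a gene.

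Cre was set against wt in R 4.3.3 with limma 3.58.1 (genotype and batch as fixed terms, eBayes), adjusted by Benjamini-Hochberg over all probe sets at a threshold of 0.05. The interaction of genotype and batch and each batch alone were fitted likewise. The fit was checked on simulated data with independent normal noise for each probe set and no mice that stand apart, unlike these data. How often a 1.5-fold difference passed adjustment there is not given here. Relations across mice used two-sided permutation within genotype and batch with 100000 resamples (Python 3.11.15, NumPy 2.4.6). The number of mice limits the precision, and no interval covers more than the spread between these mice.

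The hypoxia genes and lists were chosen with earlier results of these data known. Tnf, the hypoxia genes, every gene of a pathway list with an unadjusted p under 0.05 (otherwise the 2 with the smallest p) and the 3 nearest genes were named by rule. Further list genes named for their function (Egln1, Hif1an, Vhl, Arnt, Ldha, Pgk1, Pfkfb3, Calcrl, Ramp2, Kdr, Flt1 and Bnip3l) were chosen after their values were seen. Of the 5 pathway lists, 71 of 76 genes were measured. Alternatives were each batch alone, a fit without the batch term, a block for the replicate number, another prior, a filter on low values, re-scaling, array weights, marker means as covariates, another fold and leaving out mice. For the pathway and marker lists, each batch alone and leaving out wt replicates 5 and 6 were run.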

Additional observations from a re-analysis of the deposited data

Results flagged for a closer look

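A mouse lay far from the others of its group in 6 of 60 groups checked, that is each of the 10 genes in each genotype and in each genotype of a batch, by the gap to its neighbour relative to the whole range. Chance flags about 1 in 20 such groups. In wt replicate 6, Bnip3 was lowest in its batch (10.74, next 12.68) and Slc2a1 highest (11.95, next 10.42). In cre replicate 9, Slc2a1 was lowest both among all cre mice and in its batch (8.82, next 9.90). Pdk1 was lowest in wt replicate 1 (9.71, next 10.31), and Car9 was highest in cre replicate 6 of batch 2 (6.48, next 5.61).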

How the results depend on the processing

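No hypoxia gene passed adjustment in any alternative run (smallest limma adjusted p = 0.574), and Hif1a, Adm, Egln3, Ankrd37 and Slc2a1 kept their direction in all of them. The other 5 turned sign, mostly around small differences, and the cause was not tested. Epas1 was −0.025 in batch 1 alone, −0.087 with array weights, −0.19 without wt replicates 5 and 6, −0.028 without the 4 mice set apart by another tissue, −0.15 with the adipocyte and −0.048 with the macrophage marker mean as covariate, and −0.26 without cre replicate 9 and wt replicates 5 and 6, a setting chosen after seeing the data. In the same order, but for the macrophage covariate, Bnip3 was −0.13, −0.084, −0.30, −0.064, −0.205 and −0.26. Vegfa was −0.072 with the macrophage covariate and −0.074 without the 3 mice. Pdk1 was −0.075 in batch 2 alone and −0.0069 with array weights. Car9 was 0.17 in batch 2 alone, 0.019 without wt replicates 5 and 6 and 0.064 without the 3 mice. Leaving out 1 mouse at a time gave −0.085 to 0.28 for Epas1, 0.20 to 0.52 for Vegfa, −0.135 to 0.23 for Bnip3, −0.051 to 0.085 for Pdk1 and −0.18 to 0.011 for Car9.

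The 2 genes higher at an unadjusted p under 0.05 became 1 in batch 1, 0 in batch 2, and 1 without wt replicates 5 and 6, without the 4 mice, without the 3 mice or with the macrophage covariate (1 to 2 leaving out 1 mouse). The 1 lower became 2 in batch 1 and 0 in batch 2 (1 to 2). For these settings the share of all probe sets at that p was not computed. The 1 probe set past adjustment became 0 in either batch alone, 0 with the replicate block, and 2 without the 4 mice or with the macrophage covariate (1 to 2). The 232 probe sets past the authors' cut-offs became 946 in batch 1, 568 in batch 2, 627 without the 4 mice and 1364 at 1.2-fold (180 without wt replicate 5 to 451 without wt replicate 4). Replicate numbers showed no plain pairing of the mice (r of deviations −0.303 to 0.339, over 0.1 in 4 of 10). Of the 10 wt mice, 4 were closest to the cre mouse of their own number among the cre mice of their batch. This check cannot exclude pairing. Since each number holds 1 wt and 1 cre mouse, the replicate block cannot move a difference, only its p (by limma, unadjusted, 0.0472 for Hif1a, 0.0326 for Adm and 0.0138 for Ankrd37). Each hypoxia gene had 1 probe set, so no other rule for several probe sets was run. Low signals limit Ankrd37, Car9 and Egln3.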

Other observations

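Wt replicate 9 had low values of Vegfa (11.23), Adm (7.87) and Epas1 (12.18), each among the 3 lowest of the 10 wt mice. Its Bnip3 value, 12.92, lay near the wt mean of 12.89, which includes the low wt replicates 5 and 6. It was below the wt median of 13.28. The adipocyte mean of wt replicate 9, 16.09, was the lowest of the wt mice after replicates 5 and 6, and its macrophage mean, 13.92, the highest after replicate 5. Its seminal vesicle mean was 5.10, and its liver mean, 11.42, was the second highest of the wt mice. Wt replicate 10 had the highest wt values of Vegfa (13.43), Adm (9.65) and Epas1 (13.73) and the highest endothelial mean of all mice (10.24), while its Bnip3 value was 13.29, within the middle of the wt mice. Both mice were singled out after their values were seen.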
